A study of Rattus norvegicus with 145 samples.

Results

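The centromere proteins (Cenp) are a family of nuclear proteins that build the centromere and the kinetochore. The symbols Cenpa, Cenpe, Cenpf, Cenph, Cenpi, Cenpk, Cenpm, Cenpn, Cenpt and Cenpw were looked up as rows of 5 gene count tables of rat liver. Of these 10 genes, 8 were found among the 17337 genes of the tables, and Cenpe and Cenph were not analysed here. All 8 passed the filter on low counts in each of the 5 data sets.

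A kinetochore is the protein plate on each chromosome to which the spindle attaches in mitosis. It is laid down on nucleosomes that carry the histone H3 variant CENP-A. An inner layer of proteins (the constitutive centromere-associated network, CCAN) binds these nucleosomes and recruits the outer layer that holds microtubules. Transcripts of many of these genes peak before mitosis, and the adult liver holds few dividing cells.

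The livers came from a study of acetamide, a small amide that causes liver tumors in rats at high doses. Experiment A used male Hsd:WI rats of 9 to 10 weeks of age, gavaged for 7 days with vehicle alone (0, the vehicle control) or with acetamide at 30, 100, 300 and 1000 mg per kg of body weight a day (mkd), and examined on day 8. Experiment B used male and female Crl:WI rats of 8 to 10 weeks of age at 0, 300, 500, 750, 1000 or 1500 mkd, dosed for 7 or 28 days and examined on day 8 or 29. The 29 groups hold 5 rats each, and 1 piece of the left liver lobe per rat was sequenced after an overnight fast. For the vehicle control males of day 29, 1 label names the other experiment, while title and strain place them in experiment B, where they were used. Strain, doses and study differ together between experiments A and B and cannot be told apart.

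Between 15449716 and 39986531 reads per rat fell on genes (median 28262376). Summed hepatocyte markers reached 73024 to 368375 CPM (counts per 1000000 reads on genes, after scaling by TMM factors) in the vehicle and highest-dose rats. CPM are not scaled to gene length, so levels are compared between rats within a gene and not between genes. In whole liver, more cells that express a gene and more RNA per cell cannot be told apart. Rat Rv2655 (males day 29, 1500 mkd, replicate 3) stood apart from all others, and the 1500 mkd and slope results of its data set are given with and without it. The tests of a data set estimate the spread of a gene over all its dose groups, so that rat also enters the tests of lower doses. The lower doses of males day 29 were not fitted without it. The reference annotation also lists a second gene with a sequence like Cenpw (Cenpwl1), so that reads of the pair may not have been told apart and the Cenpw values are uncertain.

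The members can be grouped by their place in the kinetochore. Cenpa encodes CENP-A itself. Cenpi, Cenpk and Cenpm encode subunits of the CENP-H/I/K/M complex of the inner layer, and Cenpn encodes a subunit that reads the CENP-A nucleosome directly. Cenpt and Cenpw encode histone-fold proteins that pair with each other and link DNA to the outer kinetochore. Cenpf encodes a large coiled-coil protein of the outer layer and corona that is made in G2 phase and destroyed after mitosis.

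Promoters of late cell cycle genes often carry a cell cycle genes homology region (CHR) and CCAAT boxes, and promoters of early cell cycle genes often carry E2F sites. RefSeq promoters (GRCr8, 250 bases before to 50 after the start) were at hand for 7 of the 8 members. A stretch before the start of 4 members is shown to let the motif letters be seen in place. Capitals mark CHR letters (TTTGAA or TTCGAA) and CCAAT on the strand of the gene, and ATTGG where CCAAT lies on the other strand. The windows are Cenpf on chr13:103760947-103761026 (minus strand), Cenpa on chr6:31431653-31431802 (minus strand), Cenpi on chrX:101809579-101809658 (plus strand) and Cenpk on chr2:37094077-37094236 (plus strand).
Cenpf: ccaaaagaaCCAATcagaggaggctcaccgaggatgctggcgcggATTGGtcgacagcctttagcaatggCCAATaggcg
Cenpa: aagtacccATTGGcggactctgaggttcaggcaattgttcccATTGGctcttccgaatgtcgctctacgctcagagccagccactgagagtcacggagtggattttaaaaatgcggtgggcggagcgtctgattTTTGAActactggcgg
Cenpi: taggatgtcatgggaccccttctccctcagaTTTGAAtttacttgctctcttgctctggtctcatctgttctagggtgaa
Cenpk: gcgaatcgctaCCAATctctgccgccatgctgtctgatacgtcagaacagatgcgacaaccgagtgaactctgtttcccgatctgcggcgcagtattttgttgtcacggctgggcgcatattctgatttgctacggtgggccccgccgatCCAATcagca

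Searched on both strands of the whole 300-base promoters, the CHR letters were found in 6 of the 7 members with a sequence and in 19.7% of 33469 rat promoters. CCAAT was found in 4 of 7 members and in 37.5% of all promoters. Both motifs stood in 3 of the 7, Cenpa, Cenpf and Cenpn, and in 7.95% of all promoters. The E2F letters searched (TTTGGCGC and TTTCGCGC) matched in 0 of the 7 windows and in 0.792% of all. The motifs do not overlap each other in the stretches shown. In Cenpf, Cenpm, Cenpn and Cenpw the CHR letters lie after the start and are not shown.

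The first question was at which doses the members rose. Differential expression required both a 1.5-fold change or more and an adjusted p no higher than 0.05 in the edgeR quasi-likelihood test, with p adjusted over all genes of the comparison. At the highest dose of each data set the log2 fold change was positive for all 8 members in all 5 data sets. In experiment A at 1000 mkd 6 of 8 members rose, against 14% of 11323 genes tested. That count ranged from 1 to 7 when single rats were left out, and was 1 without control replicate 1, control replicate 3 or treated replicate 4. At 1500 mkd 6 of 8 rose in females day 29, against 9.55% of 11451 genes, and 6 of 8 rose whichever rat was left out. For males day 29 at 1500 mkd 7 of 8 rose, against 3.16% of 11279, while 1 of 8 did without rat Rv2655 and 0 of 8 when only the vehicle and 1500 mkd groups were fitted. At the same dose 0 of 8 were called in males day 8, against 0.142% of 11304. An unadjusted p under 0.05 was found there for 7 of 8 members and for 1429 of the 11304 genes. For females day 8, 0 of 8 were called, against 0.522% of 11497. An unadjusted p under 0.05 was found there for 6 of 8 members and for 1688 of the 11497 genes. DESeq2 called 3 members in males day 8, with 1.03% of its genes called up, and 3 in females day 8, with 2.16%. With at least 10 counts required in every rat, 2 of the 3 members still tested were called in experiment A, 3 of 5 in males day 29 and 2 of 4 in females day 29. The edgeR shares above belong to the main fits, and none was recorded under this filter.

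Below the highest dose, members were called in 1 of 19 comparisons. There, in females day 8 at 1000 mkd, Cenpf, Cenpk, Cenpn, Cenpt and Cenpw rose, while 1.03% of all genes did. Over all doses below 1500 mkd in females day 8, 3 members were called with no filter on low counts, and with at least 10 counts in every rat 2 of the 4 still tested. The share of all genes was not recorded for these filters. In the 18 others between 0 and 7 members had an unadjusted p under 0.05, beside 159 to 2959 of all genes tested. The 7 were those of females day 8 at 750 mkd, with 1609 of 11497 genes. In these 18 comparisons 0 of 8 members were called, and few of all genes were called up. This share was 0% at 30, 100 and 300 mkd in experiment A, 0% at 300 to 1000 mkd in males day 8, and 0% at 300 and 500 mkd in males day 29. It reached 0.248% at 750 mkd and 0.949% at 1000 mkd in males day 29. The fit of males day 29 includes rat Rv2655. In it the lowest adjusted p of a member was 0.111 at 750 mkd and 0.0904 at 1000 mkd (edgeR). Females day 8 had 0.0087% at 300, 500 and 750 mkd. Females day 29 had 0% at 300 mkd, 0.0349% at 500, 0.166% at 750 and 1.23% at 1000 mkd. DESeq2 called 3 members in females day 8 at 750 mkd, with 1.23% of its genes called up. In females day 29 it called 3 at 750 mkd (0.977% of genes) and 3 at 1000 mkd (3.05%), and in males day 29 1 at 750 mkd (0.578%) and 1 at 1000 mkd (2.04%). For males day 29 DESeq2 gave no adjusted p for Cenpf at any dose, and none for Cenpi and Cenpw at 500 and 750 mkd. Over the 22 comparisons of 300 mkd and more, which share control rats within a data set, 171 of 176 member values were positive. The members vary together, so these values are not independent. The median log2 fold change over all genes tested lay between -0.01 and 0.07 in these comparisons. In experiment A at 30 and 100 mkd the medians of the members were -0.48 and -0.54 on the log2 scale, and 0 members had an unadjusted p under 0.05.

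**Figure D1:**
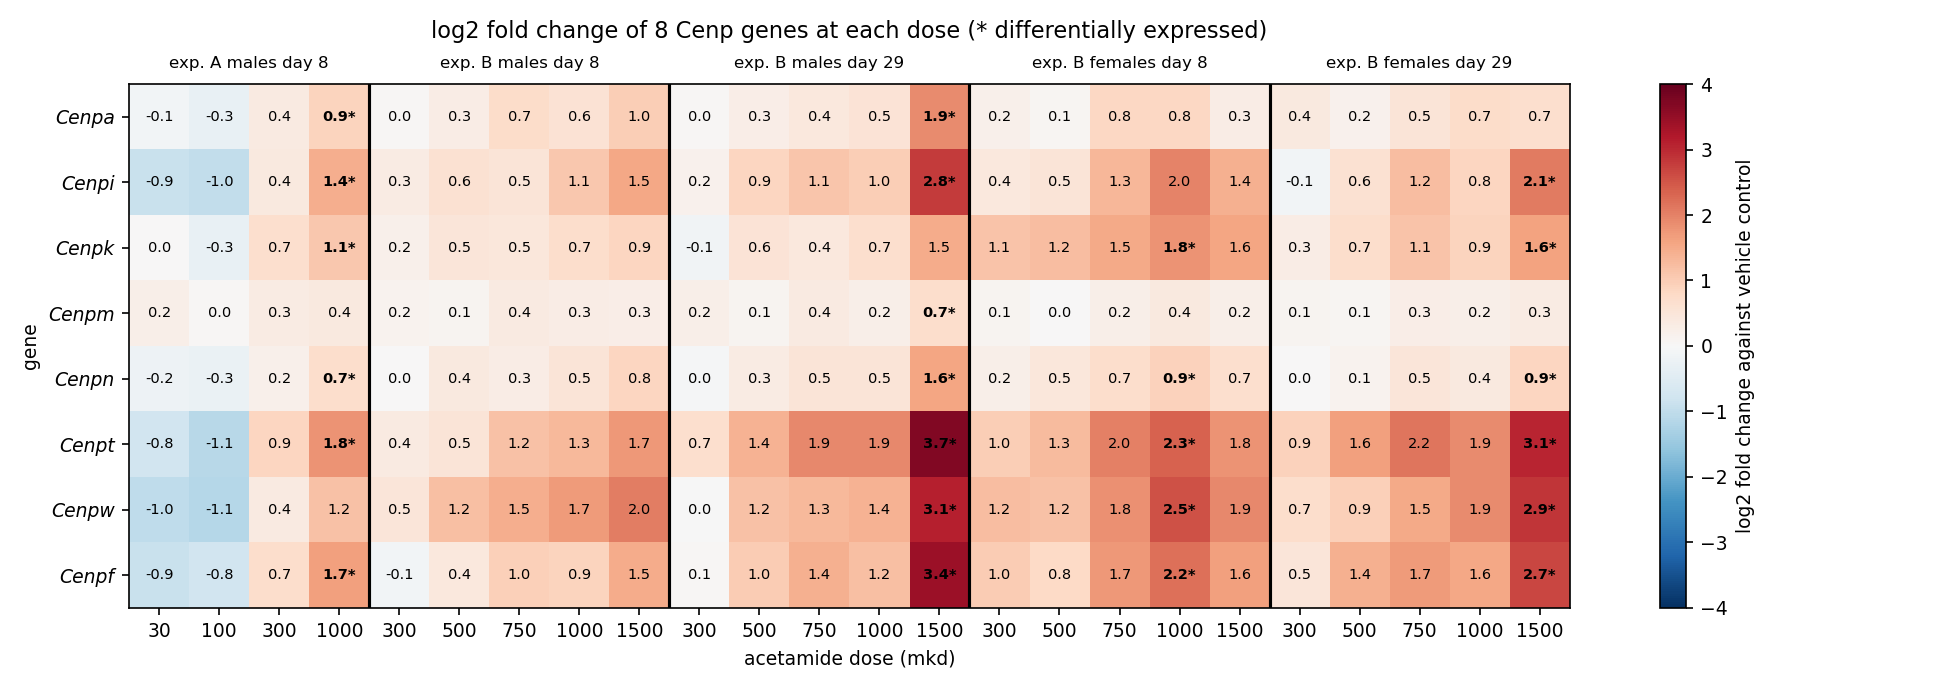
Fitted log2 fold change against the vehicle control (colour and number) for 8 Cenp genes (rows) at each acetamide dose (columns, mkd) of the 5 data sets, with 5 rats per group. A star marks genes called differentially expressed; they stand at the highest dose of experiment A and of both day 29 data sets, and at 1000 mkd in females day 8.

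The median log2 fold change of the members at the highest dose was 1.12 in experiment A, 1.23 on day 8 and 2.34 on day 29 in males of experiment B, and 1.5 on day 8 and 1.85 on day 29 in females. The median over all genes tested lay between -0.00 and 0.07 in these comparisons. Without rat Rv2655 the median of the members in males day 29 was 0.50. Cenpt had the highest mean log2 fold change of the 8 over the 5 comparisons (2.42) and Cenpm the lowest (0.39).

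Cenpa encodes the histone variant that marks the centromere. In experiment A its level was 1.05, 1.49, 1.29, 0.963 and 1.74 CPM in the 5 vehicle control rats and 2.44, 2.48, 1.89, 3.07 and 2.13 CPM at 1000 mkd. All 5 treated rats lay above all controls. The log2 fold change was 0.88 (SE 0.33, adjusted p = 0.0444 in edgeR), and the call held in 2 of 10 fits that each left out 1 rat. Among females day 29 the level was 0.661 to 2.16 CPM in controls and 0.936 to 2.66 CPM at 1500 mkd. Those groups overlapped, and the log2 fold change of 0.67 was not called (edgeR adjusted p = 0.179). It was 0.31 (SE 0.29) at 1500 mkd in females day 8.

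Cenpi and Cenpk belong to the CENP-H/I/K/M complex, which joins the inner layer to the CENP-A nucleosome. Cenpi in females day 29 was at 0.350, 0.197, 0.126, 0.163 and 0.520 CPM in the controls and at 0.983, 1.19, 1.64, 1.65 and 0.255 CPM at 1500 mkd. Of the treated rats 4 lay above all controls and replicate 5 among them. Its log2 fold change was 2.08 (SE 0.45, adjusted p = 0.0022 in edgeR). Cenpk was at 0.350, 0.361, 0.587, 0.571 and 0.720 CPM in the controls and at 1.33, 2.31, 1.69, 1.31 and 1.28 CPM at 1500 mkd. Its groups did not overlap, and the log2 fold change was 1.62 (SE 0.29, adjusted p = 0.000438 in edgeR). In experiment A at 1000 mkd Cenpi rose by 1.44 on the log2 scale (SE 0.52, adjusted p = 0.0374) and Cenpk by 1.08 (SE 0.37, adjusted p = 0.0305, edgeR). There, 2 treated rats lay above all controls for Cenpi and 3 for Cenpk, since control replicate 5 was high for both. The calls held in 3 of 10 fits that each left out 1 rat for Cenpi and in 6 of 10 for Cenpk.

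Cenpm, the small subunit of the same complex, moved least. Over all rats it ranged from 3.14 to 14.4 CPM, and the highest value was that of rat Rv2655. Its log2 fold change at the highest dose ranged from 0.25 in females day 8 to 0.70 in males day 29. It was called in males day 29 alone, where the adjusted p was 0.0482 in edgeR with rat Rv2655 and 0.254 without it. Females day 29 had 5.25 to 8.68 CPM in controls and 7.45 to 10.9 CPM at 1500 mkd, with overlap.

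Cenpn encodes the subunit that binds the CENP-A nucleosome. Among females day 29 it was at 1.52, 1.25, 1.72, 2.00 and 1.84 CPM in the controls and at 2.89, 3.25, 3.44, 3.6 and 1.87 CPM at 1500 mkd. Replicate 5 of the treated rats lay within the control range and the other 4 above it. Its log2 fold change was 0.86 (SE 0.21, adjusted p = 0.00489 in edgeR). In experiment A it was 1.63 to 2.26 CPM in controls and 2.32 to 4.19 CPM at 1000 mkd with no overlap, and the log2 fold change was 0.71 (SE 0.26, adjusted p = 0.0372 in edgeR). That call held in 3 of 10 fits that each left out 1 rat. Of males day 8, all 5 rats at 1500 mkd (2.41 to 3.88 CPM) lay above all controls (1.28 to 2.00 CPM), with a log2 fold change of 0.85 and an edgeR adjusted p of 0.0839.

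Cenpt encodes the DNA-bound arm that recruits the outer microtubule-binding complex. Among females day 29 it was at 0.311, 0.590, 0.461, 0.204 and 0.240 CPM in the controls and at 3.21, 3.86, 3.52, 3.94 and 0.681 CPM at 1500 mkd. All 5 treated rats lay above all controls, with replicate 5 far below the other 4. The rise on the log2 scale was 3.05, or 8.29-fold (SE 0.51, adjusted p = 0.000255 in edgeR). From the controls up through 300, 500, 750, 1000 and 1500 mkd, the means (± SD, n = 5) were 0.361 ± 0.161, 0.682 ± 0.524, 1.14 ± 0.732, 1.64 ± 0.692, 1.35 ± 0.364 and 3.04 ± 1.35 CPM. Each neighbouring pair in this order overlapped in single rats. In experiment A it was at 0.210, 0.581, 0.227, 0.933 and 1.44 CPM in the controls and at 1.67, 1.90, 1.86, 4.22 and 2.42 CPM at 1000 mkd. The groups did not overlap there, and the log2 fold change was 1.81 (SE 0.57, adjusted p = 0.02 in edgeR). That call held in 7 of 10 fits that each left out 1 rat.

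Cenpw encodes the histone-fold partner of CENP-T. Among females day 29 it was at 0.117, 0.131, 0.251, 0.0408 and 0.0800 CPM in the controls and at 0.896, 1.10, 0.899, 1.48 and 0.213 CPM at 1500 mkd. Of the treated rats 4 lay above all controls. These levels rest on 1 to 6 reads per control rat. Its log2 fold change was 2.86 (SE 0.51, adjusted p = 0.000412 in edgeR). In experiment A at 1000 mkd the log2 fold change of 1.17 was not called (edgeR adjusted p = 0.125), and control replicate 5 (1.35 CPM) lay above 4 of the 5 treated rats.

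Cenpf encodes the outer kinetochore protein of G2 and M phase. Females day 29 had 0.700, 1.02, 1.17, 0.856 and 1.44 CPM in the controls and 5.38, 7.16, 9.47, 9.03 and 2.26 CPM at 1500 mkd. The groups did not overlap. Cenpf rose by 2.68 on the log2 scale, or 6.42-fold (SE 0.50, adjusted p = 0.00064 in edgeR). In experiment A the controls were at 1.02, 1.52, 1.13, 2.32 and 4.69 CPM and the rats at 1000 mkd at 5.41, 5.43, 5.71, 10.4 and 6.77 CPM. Again the groups did not overlap, and the log2 fold change was 1.65 (SE 0.49, adjusted p = 0.0137 in edgeR). This call held in all 10 fits that each left out 1 rat.

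**Figure D2:**
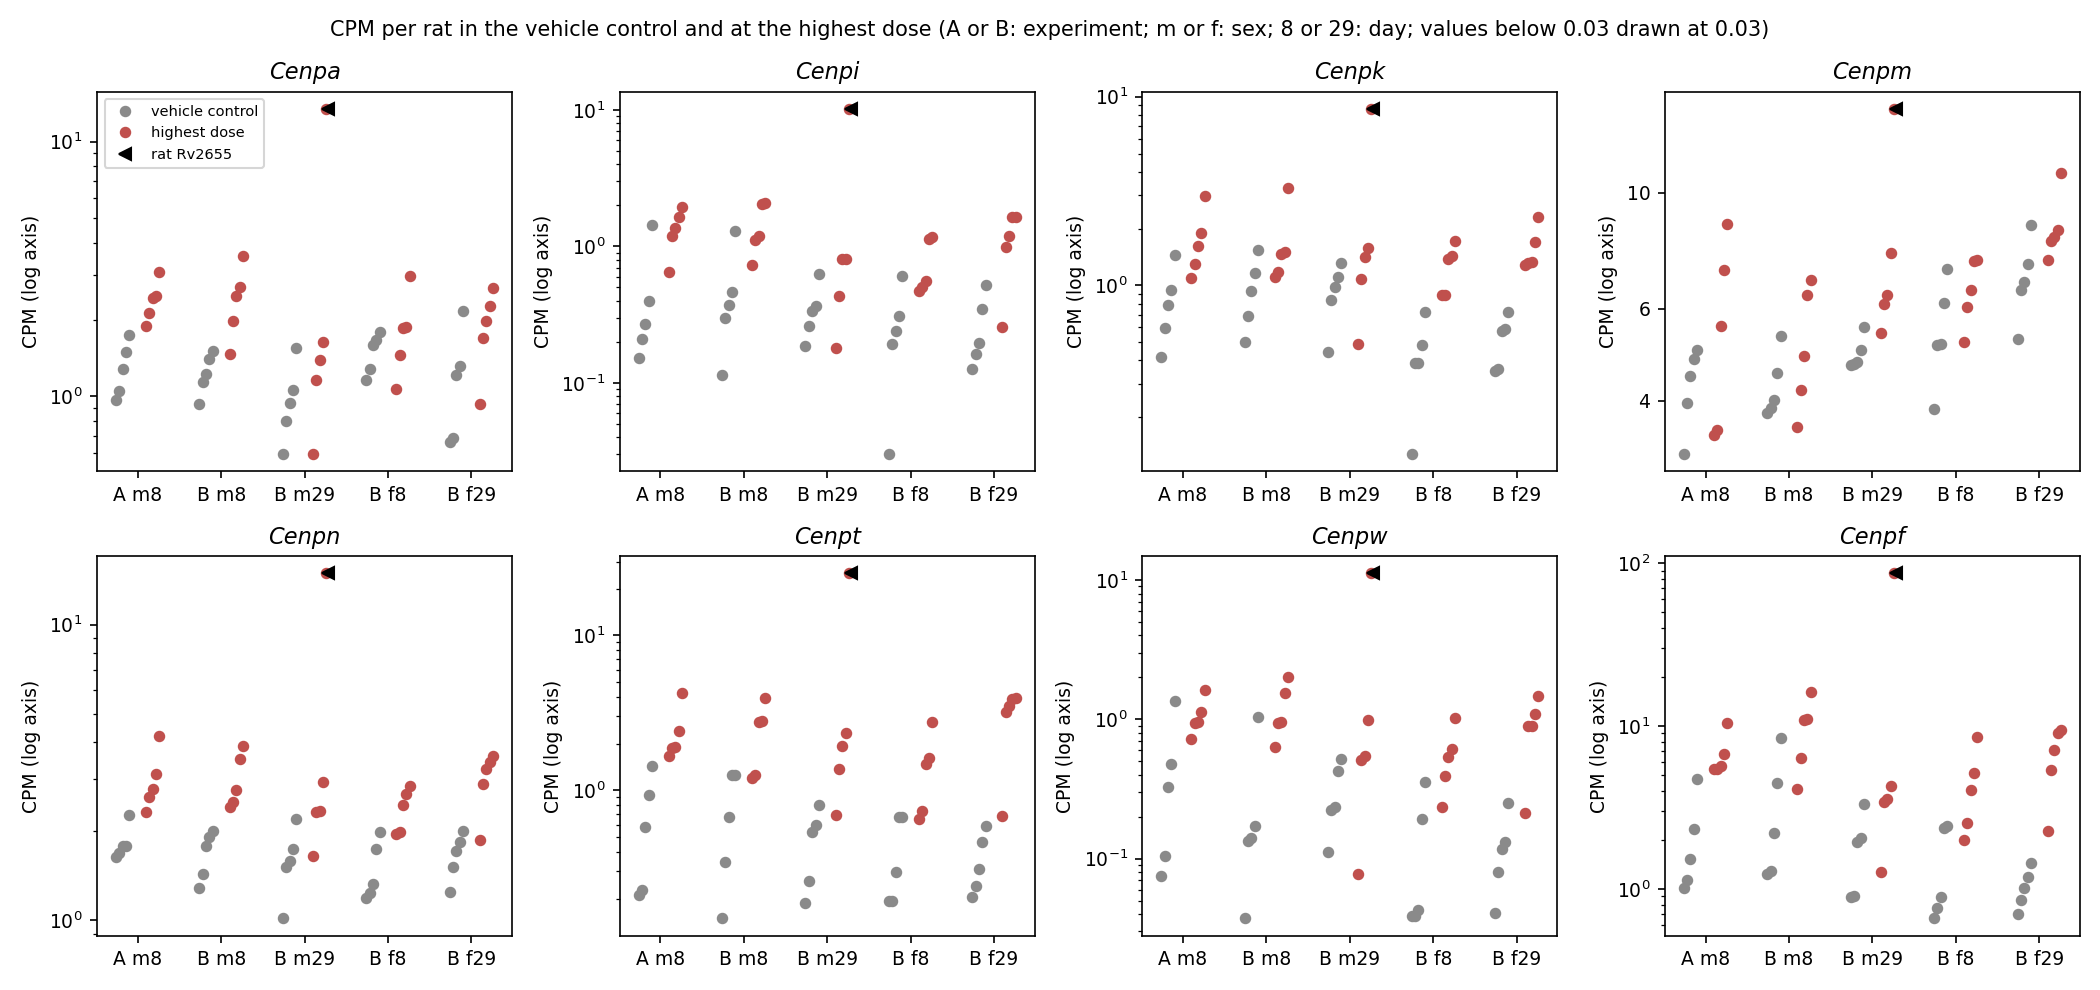
CPM of each of 8 Cenp genes (panels, log axis) in single rats of the vehicle control (grey) and of the highest dose (red) in the 5 data sets, 5 rats per group; the triangle marks rat Rv2655. Rat Rv2655 holds the highest value in every panel, and Cenpk, Cenpt and Cenpf of females day 29 show no overlap between controls and treated rats.

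All 8 members had a larger log2 fold change at 1000 than at 1500 mkd in females day 8. Cenpt was at 0.193, 0.674, 0.297, 0.674 and 0.194 CPM in the controls, at 2.24, 0.956, 1.18, 2.44 and 3.48 CPM at 1000 mkd and at 0.653, 0.740, 1.62, 2.77 and 1.48 CPM at 1500 mkd. The rats at 1000 mkd lay above all controls, and those at 1500 mkd overlapped both other groups. The log2 fold change of Cenpt was 2.34 at 1000 mkd (SE 0.58, adjusted p = 0.034 in edgeR) and 1.80 at 1500 mkd (SE 0.59, adjusted p = 0.117). Cenpw had 2.53 at 1000 mkd (adjusted p = 0.0421) and 1.93 at 1500 mkd (adjusted p = 0.149, edgeR). The difference between these 2 doses was not tested.

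At no single dose did edgeR call a member in males day 8, while DESeq2 called Cenpa, Cenpn and Cenpw at 1500 mkd (DESeq2 adjusted p = 0.0155, 0.0207 and 0.0217). Cenpf was at 1.23, 1.28, 2.20, 4.48 and 8.47 CPM in the controls and at 6.33, 4.09, 10.9, 11.0 and 16.3 CPM at 1500 mkd. The controls spread widely, and their highest rat lay above 2 of the treated rats. Its log2 fold change was 1.48 (SE 0.52, adjusted p = 0.2 in edgeR). Cenpa had the lowest adjusted p of the members there, 0.0714, with 4 of 5 treated rats above all controls.

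Males day 29 at 1500 mkd were set apart by rat Rv2655. Cenpt was at 0.800, 0.188, 0.594, 0.538 and 0.260 CPM in the controls and at 2.33, 1.38, 25.1, 1.94 and 0.696 CPM at 1500 mkd. Cenpf was at 4.27, 3.57, 86.5, 3.41 and 1.26 CPM in the treated rats, against 0.891 to 3.34 CPM in the controls. Replicate 3 is rat Rv2655, and it held the highest level among all rats for 8 of 8 members. It exceeded the median of the other 4 rats of its group 24.8-fold for Cenpf, 21.1-fold for Cenpw, 15.1-fold for Cenpt and 2.31-fold for Cenpm.

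With all rats, the log2 fold change in males day 29 was 3.71 for Cenpt (adjusted p = 0.00834), 3.44 for Cenpf (0.0137), 3.11 for Cenpw (0.0174), 2.80 for Cenpi (0.0214), 1.59 for Cenpn (0.0212) and 1.89 for Cenpa (adjusted p = 0.0376, edgeR). Cenpk, at 1.49, was not called (adjusted p = 0.0521). Without rat Rv2655, Cenpt alone was called, with a log2 fold change of 1.64 (SE 0.43, adjusted p = 0.0204 in edgeR). Cenpf then had 0.70 (SE 0.46, adjusted p = 0.331), and all 8 values stayed positive. Without that rat 127 of 11303 genes were called up and 560 down.

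**Figure D3:**
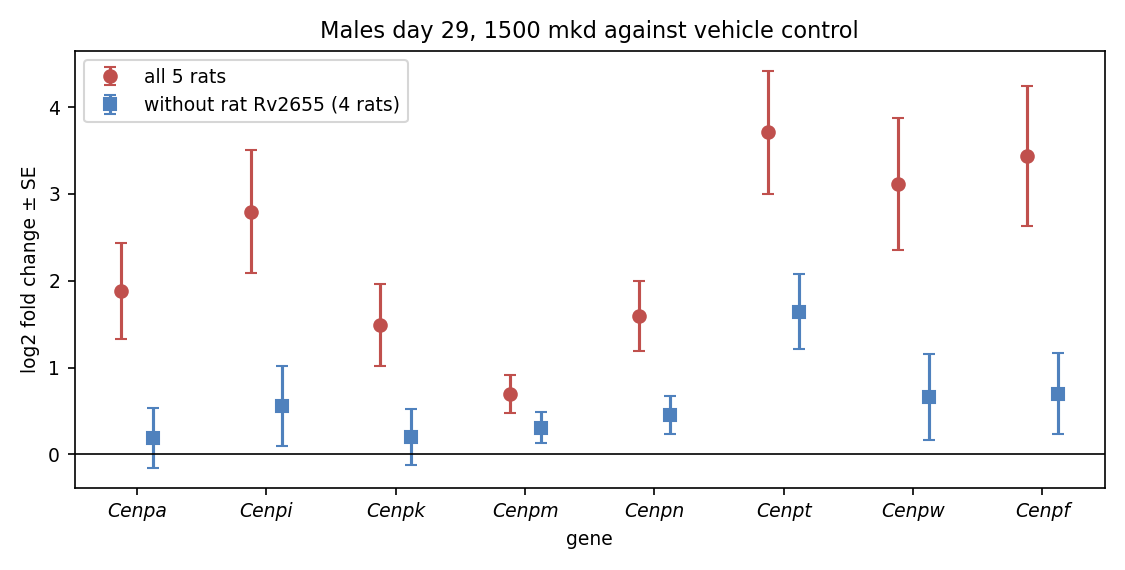
Fitted log2 fold change (vertical axis, with SE) of 8 Cenp genes in males day 29, 1500 mkd against the vehicle control, with all 5 treated rats (red) and without rat Rv2655 (blue). All points lie above 0, and every point is lower without that rat, for Cenpt 1.64 in place of 3.71.

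The second question was whether levels followed dose as a number. The slope of log2 level on dose was fitted over all rats of a data set and called at an adjusted p of at most 0.05. The highest-dose rats are among them, so the slope repeats part of the comparison above and by itself shows no graded rise. It was positive for 8 of 8 members in each data set. In experiment A 7 members had a called upward slope, against 23.5% of all genes, and Cenpm did not. For males day 8 it was 6 members against 1.98%, all but Cenpk and Cenpm. For males day 29 it was 8 members against 13.9%, and 2 members without rat Rv2655, a fit for which the share of all genes was not recorded. For females day 8 it was Cenpf, Cenpi, Cenpn and Cenpt against 3.76%. For females day 29 it was 6 members against 15.4%, all but Cenpa and Cenpm. The steepest slopes per 1000 mkd in females day 29 were those of Cenpw at 1.87 (SE 0.26, adjusted p = 4.76e-06) and Cenpt at 1.80 (SE 0.28, adjusted p = 2.48e-05, edgeR). The slopes of males day 8 were called in 0 to 5 members when all rats of 1 replicate number were left out, and those of females day 8 in 0 to 4. The share of all genes was not recorded for these fits.

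**Figure D4:**
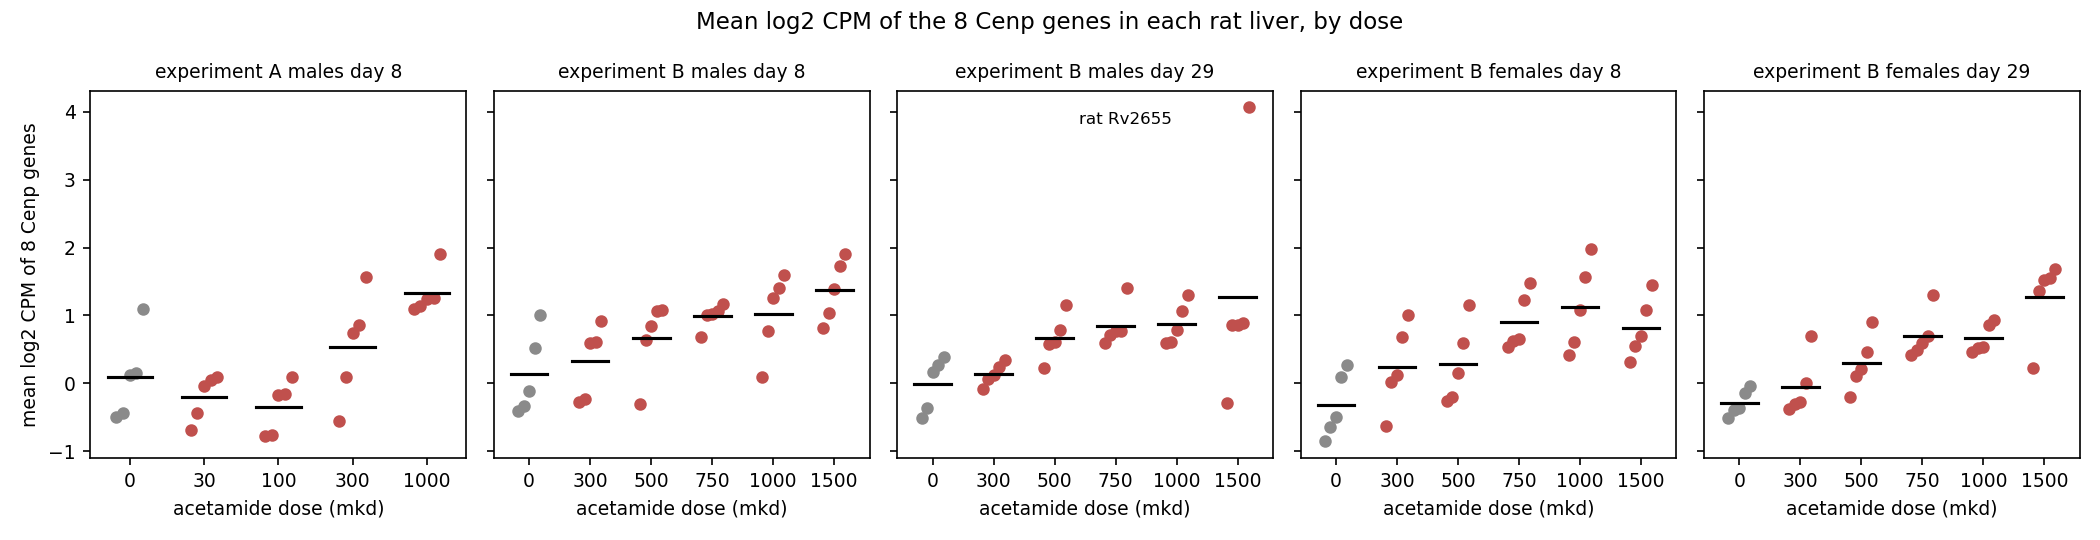
Mean log2 CPM of the 8 Cenp genes in each rat (points, grey for the vehicle control) against acetamide dose (mkd, steps not to scale) in the 5 data sets; bars are group means of 5 rats. In females day 29 all 5 rats at 750, 1000 and 1500 mkd lie above all controls, and rat Rv2655 stands at 4.07 in males day 29.

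The mean log2 CPM of the 8 members gives the order of the groups. The means of the groups of females day 29, from the controls up through 300, 500, 750, 1000 and 1500 mkd, were -0.29, -0.05, 0.30, 0.70, 0.66 and 1.27. The groups at 750 and 1000 mkd overlap each other, and the lowest rat at 1500 mkd lies below both. From 750 mkd up, 5 of 5 rats per group lay above every control. In males day 29 this held for 5 of 5 rats at 750 and 1000 mkd and for 4 of 5 at 1500 mkd. It held for 5 of 5 rats at 750, 1000 and 1500 mkd in females day 8. Of males day 8, 3 rats at 750 mkd, 3 at 1000 mkd and 4 at 1500 mkd lay above every control. In experiment A, 1 rat at 300 mkd and 4 at 1000 mkd did. The group means there, from the controls up through 30, 100, 300 and 1000 mkd, were 0.09, -0.20, -0.36, 0.54 and 1.33.

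The third question was whether the response differed between sexes, days and experiments, tested as the difference of log2 fold changes in 1 edgeR fit of all rats. For males against females at 1500 mkd, 0 of 8 members were called on day 8, with 0% of 11890 genes, and 0 of 8 on day 29, with 0.597%. For day 29 against day 8, 0 of 8 were called in males, with 0% of genes, and 0 of 8 in females, with 0.0168%. For experiment A against B at 1000 mkd in males day 8, 0 of 8 were called, with 7.85%. The unadjusted p was under 0.05 for Cenpa in the sexes on day 29, where females minus males was -1.20 (95% interval -2.26 to -0.14). It was also under 0.05 for day 29 minus day 8 in males in Cenpf, at 1.95 (0.32 to 3.58), and in Cenpt, at 1.96 (0.29 to 3.63). These 3 differences rest on rat Rv2655, and all 3 turned in sign when it was left out, to 0.40 for Cenpa (-0.51 to 1.31), -0.73 for Cenpf (-2.19 to 0.74) and -0.05 for Cenpt (-1.70 to 1.61). Without that rat, an unadjusted p under 0.05 was found instead for females minus males on day 29 in Cenpf (1.91), Cenpk (1.34) and Cenpw (2.12), with adjusted p of 0.0969, 0.0794 and 0.105 in edgeR, and 0 of 8 members were called in either contrast. The intervals were wide: for Cenpt on day 8, females minus males was 0.07 with an interval of -1.53 to 1.66.

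Levels without acetamide were compared between vehicle control groups in the same fit. Females minus males on day 8, Cenpk was called lower in females (log2 difference -1.35, SE 0.43, adjusted p = 0.0245 in edgeR), along with 11.2% of genes called either way. Cenpk was at 0.387, 0.482, 0.127, 0.722 and 0.388 CPM in females and at 0.931, 0.685, 0.501, 1.54 and 1.17 CPM in males. Both sexes overlap between 0.501 and 0.722 CPM. On day 29 the log2 difference of Cenpk was -0.97 (SE 0.42, adjusted p = 0.0946), and 0 of 8 members were called with 18.2% of genes. In the fit of the day 8 vehicle groups alone, Cenpk was not called. Cenpf on day 8 (-1.47, adjusted p = 0.117 in edgeR) and Cenpk on both days were the members with an unadjusted p under 0.05. Between days, 0 of 8 members were called in males (0.00841% of genes) and 0 of 8 in females (2.47%), and between experiments A and B 0 of 8 (2.41%). Each data set has a count table of its own, so that a batch and the sex, day or experiment cannot be told apart in these contrasts.

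Other genes of the kinetochore moved with the members in part. Among 6 further inner kinetochore genes tested, 3 rose in experiment A at 1000 mkd and 3 in females day 29 at 1500 mkd, with Cenpq, a partner in the CENP-O/P/Q/U complex, at 1.96 (adjusted p = 0.00474) and 2.35 (adjusted p = 0.000498, edgeR). Apitd1, which encodes CENP-S, had 0.14 and -0.63 in these comparisons and was not called. Of 5 genes for loading CENP-A, 3 rose in experiment A and 2 in females day 29, where Mis18a, a subunit of the complex that licenses loading, had 2.71 (adjusted p = 0.0021) and the histone chaperone Rbbp4 -0.13 (adjusted p = 0.577, edgeR). Of 9 outer kinetochore genes, 8 rose in experiment A and 7 in females day 29. Ndc80, the microtubule-binding subunit, had 2.05 and 3.48, whereas Mis12 had 0.01 and -0.13 and was not called.

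Of 9 genes of the spindle assembly checkpoint and corona, 6 rose in experiment A and 6 in females day 29. The checkpoint kinase Ttk had 2.29 and 3.26, and Mad1l1, which anchors the checkpoint at the kinetochore, had -0.23 and -0.30 and was not called in either. All 5 genes tested of the chromosomal passenger complex and shugoshin rose in both, among them the kinase Aurkb (2.03 and 3.11) and its scaffold Incenp (1.75 and 1.57). In males day 29 the counts were 2 of 6, 2 of 5, 6 of 9, 6 of 9 and 5 of 5 for the same lists, and 0, 0, 1, 0 and 2 without rat Rv2655. In males day 8 at 1500 mkd edgeR called 0 of the 34 genes of these 5 lists, and DESeq2 called 9 up and 1 down. An unadjusted p under 0.05 was found for 21 of the 34 and for 1429 of all 11304 genes tested. For females day 8 at that dose edgeR called Ttk alone (2.25, adjusted p = 0.0441), and DESeq2 called 11 up. An unadjusted p under 0.05 was found for 22 of the 34 and for 1688 of all 11497 genes tested. Cenpj shares the symbol root but encodes a centriole protein, and it was not called at the highest dose of any data set, with values from -0.04 to 0.50.

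As a reference for dividing cells, Mki67 (the Ki67 antigen) was at 6.59 ± 4.09 CPM in controls and 26.9 ± 12.5 CPM at 1000 mkd in experiment A (SD, n = 5), with a log2 fold change of 2.03 (adjusted p = 0.00368 in edgeR). It went from 4.85 ± 0.788 to 29.5 ± 11.1 CPM in females day 29 (2.61, adjusted p = 5.26e-05, edgeR). Of the 6 proliferation genes, 5 rose in experiment A and 6 in females day 29. Ccnb1, the mitotic cyclin, had 1.89 and 3.02, and Pcna, the replication clamp, had 0.53, below the fold criterion, and 0.65.

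Markers of other cell types moved in the same comparisons. Of all 11323 genes tested in experiment A at 1000 mkd, 1580 were called up and 844 down. In females day 29 at 1500 mkd 1093 of 11451 were called up and 405 down. In experiment A at 1000 mkd 4 of 10 hepatocyte markers fell and 0 rose, and their summed level went from 243763 to 328153 CPM in controls to 73024 to 238358 CPM. T and NK cell markers rose in 9 of 9 tested (25.6 to 33.9 CPM summed in controls, 46.8 to 82.0 CPM treated), macrophage markers in 6 of 10 (534 to 1626 CPM, then 1325 to 2371 CPM), endothelial markers in 4 of 6 (69.5 to 151 CPM, then 124 to 248 CPM) and stellate markers in 1 of 7. Erythroid markers fell in 2 of 6 and neutrophil markers in 2 of 3, and 0 of 3 B cell and 0 of 4 cholangiocyte markers were called. At 1500 mkd in females day 29, 4 of 10 hepatocyte markers fell and 1 rose (191891 to 368375 CPM summed in controls, 88192 to 187185 CPM treated). Macrophage markers rose in 4 of 10 (1007 to 1245 CPM, then 1151 to 2269 CPM), T and NK markers in 2 of 8 (23.2 to 54.4 CPM, then 42.6 to 84.2 CPM), and endothelial markers in 2 of 6 (90.2 to 290.1 CPM, then 213 to 335 CPM). Stellate markers rose in 1 of 7, cholangiocyte markers in 1 of 4 and neutrophil markers in 1 of 3, erythroid markers fell in 3 of 6, and 0 of 2 B cell markers were called. In the other highest-dose comparisons edgeR called 0 markers of these 9 lists. DESeq2 called 0 in males day 8, 1 in males day 29 and 1 in females day 8. An unadjusted p under 0.05 was found for 3 of 56, 7 of 54 and 6 of 56 markers, in that order. Among all genes tested it was found for 1429 of 11304, 3050 of 11279 and 1688 of 11497. The part of these cells in the rise of the members was not tested.

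Across all rats the members varied together, Cenpm least. After the mean of each data set was subtracted, the Pearson r of log2 CPM between pairs of members had a median of 0.75 over 28 pairs (0.21 to 0.90). The highest was that of Cenpf and Cenpt, and the lowest that of Cenpi and Cenpm. Pairs with Cenpm had 0.21 to 0.40, and all other pairs 0.64 or more. After the group mean was subtracted, the median was 0.64 (0.01 to 0.82). This takes out the mean effect of dose, while differences in response between rats of a group still enter. With the group mean subtracted, pairs with Cenpm had 0.01 to 0.25, and all other pairs 0.57 or more. Without rat Rv2655 the medians were 0.71 and 0.54, and the lowest r were 0.11 and -0.13. Rats of a group share a dose, library depth differs between rats, and r is given as a description.

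Among 11058 other genes tested in all data sets, the genes most like the mean of the members were Mki67 (r = 0.97), Dlgap5, Ccnb1, Kif2c and Prc1 (r = 0.96 each) with the data set mean subtracted. With the group mean subtracted they were Mki67 (r = 0.95), Dlgap5, Prc1, Top2a and Cdk1 (r = 0.94 each). The median r over all these genes was -0.01 and -0.00. Without rat Rv2655 Mki67 kept the first place in both, with r of 0.97 and 0.93.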

How the data were processed

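RNA of the left liver lobe was sequenced for each rat (stranded poly(A) libraries, single-end reads). The authors trimmed reads with Trimmomatic, aligned them to rat genome Rn6 with Bowtie2 and deposited raw HTSeq counts per gene, with no normalization. Their versions and the strand setting of the counting are not given in the sources used here, so antisense reads may be included. In experiment B HTSeq summary lines (35.5 to 67.1% of the counts of a rat, median 41.2%) entered neither library sizes nor tests.

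Counts were scaled by TMM (factors 0.735 to 1.91) and tested with edgeR 4.0.16 (quasi-likelihood F-test, filterByExpr) in R 4.3.3, with all dose groups of a data set in 1 fit and p-values adjusted by Benjamini-Hochberg over all genes. All adjusted p are from edgeR unless DESeq2 1.42.0 is named, and tests are two-sided. Intervals are estimate ± normal 95% bounds. CPM are deposited counts over reads on genes times the TMM factor of the rat, and log2 CPM used a prior count of 2. Rats shared cages, and the labels do not tie rats to cages, so p-values measure the spread between these rats with no term for the cage. Columns were checked for copies (0 identical pairs), and the fits were tested on simulated counts.

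Replicate numbers did not pair rats: correlations of same-numbered rats had medians of -0.02 to 0.03. The members and lists were chosen with earlier results of these data known. Named are all 10 members, the highest and lowest gene of each pathway list by mean log2 fold change over the 5 highest-dose comparisons, Mki67, and the 5 genes most like the members by each correlation. Promoters are RefSeq (GRCr8), a build other than Rn6, so no position in the count files is implied. Alternatives were DESeq2 with its test or its size factors, other filters, thresholds, dose ranks, the samples in the fit, a replicate block and leaving out rats.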

Additional observations from a re-analysis of the deposited data

Results flagged for a closer look

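In groups of 5 rats, a rat was singled out where its gap to the nearest other rat exceeded 0.71 of the range of the group (Dixon's 95% value). Over 80 sets of 5 values (8 members in the vehicle and highest-dose groups of 5 data sets) 14 were singled out. Chance gives about 1 in 20 sets for normal values, and CPM were used here without a log, so that rate may not hold. Members vary together, so the sets are not independent. Rat Rv2655 (males day 29, 1500 mkd) accounts for 8 of the 14, with 13.4 CPM for Cenpa, 86.5 CPM for Cenpf, 10.1 CPM for Cenpi, 8.58 CPM for Cenpk, 14.4 CPM for Cenpm, 14.9 CPM for Cenpn, 25.1 CPM for Cenpt and 11.1 CPM for Cenpw. In experiment A, control replicate 5 was high for Cenpi (1.44 CPM, nearest rat 0.399) and Cenpn (2.26 CPM, nearest 1.78), and replicate 4 at 1000 mkd was high for Cenpf (10.4 CPM, nearest 6.77). In males day 8, replicate 4 at 1500 mkd was high for Cenpk (3.30 CPM, nearest 1.49) and control replicate 5 for Cenpw (1.04 CPM, nearest 0.171). In females day 29, replicate 5 at 1500 mkd was low for Cenpt (0.681 CPM, nearest 3.21).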

How the results depend on the processing

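Of 658 alternative fits of single members at the highest dose, 571 kept direction and side of the threshold, 69 lost the call, 18 gained it and 0 turned the direction. The 571 include members not called above that stayed uncalled, so all 69 losses fell on called members. In experiment A a call held in 8 of 17 fits for Cenpa at the least and in 16 of 16 for Cenpf at the most. In males day 29 this ran from 4 of 17 for Cenpm to 15 of 16 for Cenpt. In females day 29 Cenpn kept its call in 16 of 17 fits, and the other called members kept theirs in every fit. In females day 29 at 1500 mkd 6 members were called in each fit that left out a rat and 2 under a filter of at least 10 counts in every rat. That filter left 2 calls in experiment A at 1000 mkd, 3 in males day 29 at 1500 mkd and 2 below the highest dose in females day 8. A fold of 1.4 with an adjusted p of 0.1 as criteria gave 3 calls in males day 8 and 1 in females day 8, and DESeq2 gave 3 in each. Below the highest dose DESeq2 called 1 member in males day 29 and 4 in females day 29, and with no filter on low counts 3 were called in females day 8. With only the vehicle and 1500 mkd groups in the fit, males day 29 had 0 calls, and the day 8 vehicle contrast of the sexes fitted alone had 0.

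Leaving out single rats gave 1 to 7 calls in experiment A (1 without control replicate 1 or 3 or 1000 mkd replicate 4, 2 without control replicate 4, 3 without control replicate 2 or 1000 mkd replicate 2). It gave 0 to 2 in males day 8 (2 without control replicate 5, 1 without 1500 mkd replicate 2), and 1 to 8 in males day 29 (2 without control replicate 2, 4 without control replicate 3, 1 without rat Rv2655). For slopes, leaving out a replicate number gave 0 to 5 calls in males day 8, 1 to 8 in males day 29 (2 without rat Rv2655 alone, a setting chosen after seeing the data) and 0 to 4 in females day 8, and in each such fit 7 in experiment A and 6 in females day 29. The cause of these changes was not tested. Shares of all genes called were not recorded for the other filters or for left-out rats. The exception is males day 29 at 1500 mkd without rat Rv2655.

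The replicate block gave 4 calls in males day 29 at 1500 mkd, 1 below the highest dose in females day 8, 1 in females day 29 and 2 slopes in females day 8. Its other counts stayed within 1.5 times, and same-numbered rats shared only a number (20 to 24 pairs per data set with a correlation over 0.1).

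Depth limits Cenpi, Cenpt and Cenpw most, whose lowest rats hold 0, 1 and 1 reads.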
